A study of Mus musculus with 9 samples.

Results

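The livers of ob/ob mice given tauroursodeoxycholic acid (TUDCA) were compared with the livers of lean mice, using 6 of the 9 arrays of a study of hepatic gene expression in genetic obesity. The members were the 3 OB-TUDCA arrays and the 3 N-control arrays, taken by their sample titles. The N-control group held wildtype C57BL/6J mice, the lean controls, that received tap water by gastric gavage 2 times a day for 3 weeks. The OB-TUDCA group held ob/ob mice of the strain B6.V-Lepob/J that received TUDCA by gavage at 500 mg/kg, also 2 times a day for 3 weeks. The OB-control group, whose 3 arrays are given for context, held ob/ob mice of that strain on tap water. All mice were male, 6 weeks old at the start of gavage, fed normal chow and killed after a fast of 8 hours. The titles call the arrays of a group biological replicates, and each array is 1 liver sample as far as the labels say.

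Both obese groups lacked functional leptin, the adipocyte hormone that limits food intake, so ob/ob mice overeat and develop obesity, high insulin and a fatty liver. TUDCA is a taurine-conjugated bile acid that is studied as a chemical chaperone of the endoplasmic reticulum (ER). No lean group received TUDCA, so OB-TUDCA differs from N-control by genotype and by treatment together, and the OB-control arrays separate these only as far as the ob/ob genotype alone goes. All values are log2 signals of Affymetrix Mouse Gene 1.0 ST arrays, and a difference of 1 is a 2-fold difference. Probe sets with exactly 1 gene symbol were averaged per symbol, which gave 19938 genes. In whole liver, fewer cells of a type and less RNA per cell cannot be told apart.

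The arrays were alike in overall level, with medians over all probe sets from 4.502 to 4.579, and the hepatocyte markers albumin (Alb, mean signal 13.4) and transthyretin (Ttr, 13) were near the top of the signal range. N-control replicate 2 carried RNA of the exocrine pancreas. Of 35 measured genes of pancreatic acinar cells, 34 were highest on that array, and the list averaged a log2 signal of 8.655 on it against 3.631 to 3.916 elsewhere. The pancreatic carboxypeptidases Cpb1 and Cpa1 stood 8.58 and 7.82 above their average on the remaining 8 arrays. Of the 31 genes that lay more than 4-fold above every other array on N-control replicate 2, 28 were on the pancreas list. None of the 35 genes passed the test of OB-TUDCA against N-control in limma (lowest adjusted p = 0.209), and 1 of them, a higher one, did before adjustment (p under 0.05, a level that 10.4% of all genes met on the higher side and 8.15% on the lower side). For other results, fits were run with the pancreas mean as a covariate, without the pancreas genes (both in the closing section) and without that array. The pancreas mean is high on that array alone. The covariate fit therefore cannot separate pancreas RNA from other traits of the array. Counts without that array are given below where they moved by more than 1.5 times.

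Differences were tested with limma, a linear model in which the variance of each gene is moderated toward a value estimated from all genes. It was fitted to all 9 arrays with Benjamini-Hochberg adjustment over 19938 genes and a threshold of 0.05. OB-TUDCA exceeded N-control in 269 genes (1.35% of genes) and was below it in 377 (1.89%). The OB-TUDCA arrays and the N-control arrays did not overlap in any of these 646 genes, and the 2 groups did not overlap in 20.7% of all genes. Most differences were moderate, with a median size of 0.74 among the 646 genes against 0.12 over all genes. A difference of 2-fold or more was found for 79 of the higher genes and 101 of the lower genes. OB-control differed from the same N-control arrays in 189 genes (0.948%), and OB-TUDCA differed from OB-control in 60 (0.301%).

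Read against OB-control, the 646 genes fell into 3 classes. The first class, abnormal in both obese groups, held 123 genes (54 higher, 69 lower) that also differed in the same direction between OB-control and N-control. The second, different under TUDCA alone, held 39 genes (13 higher, 26 lower) that differed from both other groups in the same direction and did not pass the test between OB-control and N-control. The remaining 484 genes (202 higher, 282 lower) were in neither class, and in 455 of them the OB-control mean lay between the other means. Genes with OB-control beyond either mean tend to pass another test and leave this class. That position thus follows largely from the definition and does not show a graded change. The classes rest on 3 comparisons that share arrays, so their sizes are a description. A gene outside the first class is not thereby shown to be normal in OB-control.

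The number of genes depended on single arrays. Leaving out N-control replicate 1 gave 70 higher and 144 lower genes, N-control replicate 2 gave 85 and 160, OB-TUDCA replicate 2 gave 68 and 125, and OB-TUDCA replicate 3 gave 112 and 213. Without OB-TUDCA replicate 1 there were 400 and 388, and the other 4 omissions kept both counts within 1.5 times. The class of both obese groups held 45 genes without N-control replicate 1, 50 without N-control replicate 2, 57 without OB-control replicate 1, 71 without OB-control replicate 3, 56 without OB-TUDCA replicate 2 and 81 without OB-TUDCA replicate 3. The TUDCA-alone class was empty without OB-TUDCA replicate 2 or 3, N-control replicate 2 or OB-control replicate 1. It held 11 genes without N-control replicate 1, 16 without N-control replicate 3, 16 without OB-control replicate 3 and 110 without OB-TUDCA replicate 1. Of the 646 genes, 152 (46 higher, 106 lower) kept an adjusted p under 0.05 when each array was left out in turn, 64 of them from the first class, 19 from the second and 69 from neither. A gene named below as higher or lower is one of these 152 in the comparison with N-control unless the array whose omission ends its call is given.

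**Figure D1:**
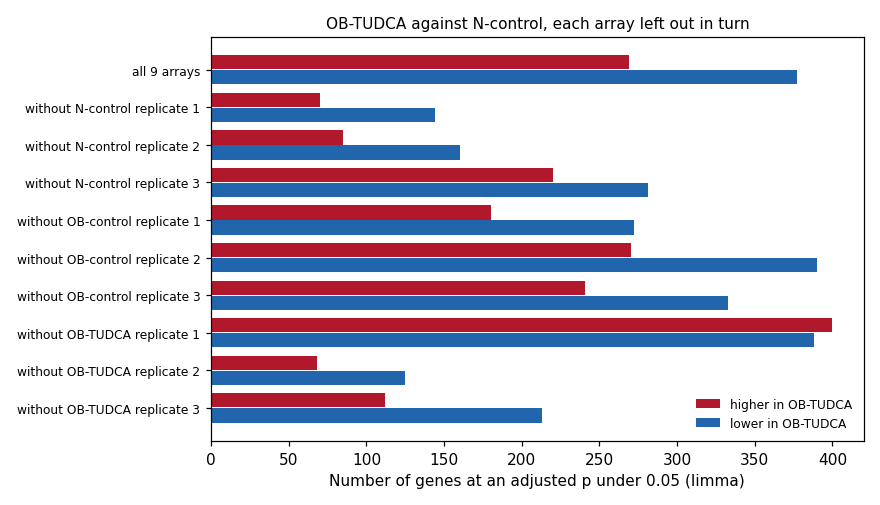
Number of genes higher (red) and lower (blue) in OB-TUDCA than in N-control at an adjusted p under 0.05, with all 9 arrays and with each array left out in turn (x axis, genes). The bars are shortest without OB-TUDCA replicate 2 (68 and 125) and longest in red without OB-TUDCA replicate 1 (400).

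Growth hormone is secreted in pulses in male mice and more evenly in female mice, and the liver reads this pattern through the growth hormone receptor and the transcription factor STAT5B. The male pattern keeps a group of liver genes high (male-biased genes) and another group low (female-biased genes). These 2 groups held the largest fall and the largest rise between lean liver and TUDCA-treated ob/ob liver. Of 24 male-biased genes measured, 17 were lower and none was higher in OB-TUDCA (median difference -1.78, against 0.04 over all genes), and of 24 female-biased genes 12 were higher and none was lower (median 0.89). Without N-control replicate 2 the counts were 11 and 8, and with each other array left out the male-biased count stayed within 1.5 times. The female-biased list also gained 1 lower gene without OB-TUDCA replicate 3. The same lists had medians of -1.45 and 0.79 in OB-control against the same N-control arrays.

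To show the start of the genes that moved most, promoter windows of 250 bases before the transcription start were read from RefSeq (GRCm38.p6, each written 5′ to 3′ on the strand of its gene). Slco1a1 (chr6:141946963-141947212, minus strand) and Hsd3b5 (chr3:98645535-98645784, minus strand) had the largest falls. Cyp2b9 (chr7:26173159-26173408, plus strand) and Cyp2b13 (chr7:26061245-26061494, plus strand) were among the 3 largest rises and lie near each other on chromosome 7. Keg1 (chr19:12695540-12695789, plus strand) is a lower male-biased gene whose window holds the letters that STAT5 proteins favour, TTCNNNGAA, printed in capitals.
Slco1a1: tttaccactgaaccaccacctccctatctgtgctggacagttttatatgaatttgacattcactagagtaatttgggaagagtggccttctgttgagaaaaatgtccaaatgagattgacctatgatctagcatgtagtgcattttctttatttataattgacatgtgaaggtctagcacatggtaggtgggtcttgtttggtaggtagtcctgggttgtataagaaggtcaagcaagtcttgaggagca
Hsd3b5: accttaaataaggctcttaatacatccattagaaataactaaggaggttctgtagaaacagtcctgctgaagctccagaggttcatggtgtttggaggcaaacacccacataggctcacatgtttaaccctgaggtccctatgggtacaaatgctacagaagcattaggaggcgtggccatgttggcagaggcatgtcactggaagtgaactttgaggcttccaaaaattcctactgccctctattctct
Keg1: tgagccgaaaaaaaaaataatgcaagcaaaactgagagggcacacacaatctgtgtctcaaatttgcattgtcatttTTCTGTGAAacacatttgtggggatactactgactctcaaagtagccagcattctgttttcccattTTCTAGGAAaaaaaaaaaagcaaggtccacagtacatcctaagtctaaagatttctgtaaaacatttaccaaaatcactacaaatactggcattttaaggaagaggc
Cyp2b9: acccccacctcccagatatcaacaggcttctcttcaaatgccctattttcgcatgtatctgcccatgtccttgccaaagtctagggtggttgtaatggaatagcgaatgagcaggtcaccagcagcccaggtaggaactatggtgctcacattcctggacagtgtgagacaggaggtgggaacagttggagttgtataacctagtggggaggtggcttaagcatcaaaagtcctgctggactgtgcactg
Cyp2b13: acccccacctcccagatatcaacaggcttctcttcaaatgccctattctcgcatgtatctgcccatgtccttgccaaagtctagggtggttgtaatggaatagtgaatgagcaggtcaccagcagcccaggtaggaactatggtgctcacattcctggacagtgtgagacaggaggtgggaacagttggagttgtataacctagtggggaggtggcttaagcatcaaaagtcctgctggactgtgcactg
The letters TTCNNNGAA, which read the same on both strands, occur in 2306 of 32851 such windows (7.02%). Counted by window, they occur in 4 of 21 windows of male-biased genes (19%) and in 2 of 27 windows of female-biased genes (7.41%). By gene, at least 1 window holds them in 3 of the 18 male-biased genes with a window (16.7%, namely Bcl6, Keg1 and Moxd1). The same holds for 2 of 20 female-biased genes (10%). Some genes have several windows, so the shares by gene are not comparable with the share over all windows. Keg1 holds them at 2 positions, which start 173 and 107 bases before the transcription start, and the other 4 windows shown do not hold them. The windows of Cyp2b9 and Cyp2b13 share 248 of 250 bases (99.2%), and the probes of such close paralogs may detect transcripts of each other.

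Slco1a1, an organic anion transporter of the hepatocyte surface, had the largest difference of all genes tested. Its log2 signal was 10.40, 10.15 and 10.19 on the N-control arrays, 2.87, 3.09 and 2.98 on the OB-control arrays and 3.9997, 3.279 and 3.624 on the OB-TUDCA arrays. OB-TUDCA was thus 98.1-fold below N-control (difference -6.62 ± 0.16 SE, n = 3 arrays a group; limma adjusted p = 1.66e-07). OB-TUDCA lay 0.65 above OB-control, a difference that did not pass the test (adjusted p = 0.128). Hsd3b5, a male-specific hydroxysteroid dehydrogenase of the liver, read 8.73, 8.73 and 8.203 in N-control, 2.67, 2.57 and 2.72 in OB-control and 2.92, 3.25 and 2.63 in OB-TUDCA. It was 49.2-fold lower in OB-TUDCA than in N-control (-5.62 ± 0.18, limma adjusted p = 8.14e-07), and the 2 obese groups overlapped. The obese signals of Slco1a1 and Hsd3b5 lay below the array medians over all probe sets (4.502 to 4.579). No detection calls were used, so the size of these folds and of the difference of 0.65 is uncertain.

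Other male-biased genes fell less steeply and kept a signal in both obese groups. Cyp7b1, the oxysterol hydroxylase of the acidic pathway of bile acid synthesis, read 9.93, 10.38 and 10.64 in N-control and 7.31, 6.63 and 6.65 in OB-TUDCA, lower by 3.45 ± 0.24 (limma adjusted p = 0.000284). Its OB-control arrays, at 6.82, 7.46 and 7.01, overlapped those of OB-TUDCA. Complement component C6 was 4.85-fold lower in OB-TUDCA (9.41, 9.53 and 9.86 against 7.38, 7.21 and 7.38). The OB-control arrays were lower still for C6, at 6.68, 6.63 and 7.05, and did not overlap OB-TUDCA, although that difference did not pass the test (0.54, limma adjusted p = 0.153). The fatty acid hydroxylase Cyp4a12b (-2.32), Susd4 (-1.91), the steroid hydroxylase Cyp2d9 (-1.65) and the major urinary protein Mup3 (-1.35) were also lower than in N-control in both obese groups.

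Several male-biased genes were outside the class of both obese groups. Elovl3, an elongase of very long chain fatty acids, was widely spread in N-control at 8.29, 9.45 and 10.93 and read 5.78, 5.71 and 5.32 in OB-TUDCA, with OB-control between at 6.74, 5.85 and 7.72. It was lower in OB-TUDCA by limma (-3.96, adjusted p = 0.0124), but the call ended without OB-TUDCA replicate 2 (adjusted p = 0.0578) or replicate 3 (0.0503). Keg1, whose protein resembles glycine acyltransferases, read 9.85, 10.06 and 9.42 in N-control, 7.74, 8.52 and 7.06 in OB-control and 7.96, 6.52 and 6.54 in OB-TUDCA (difference -2.77, limma adjusted p = 0.0125). Its call ended without N-control replicate 1 (0.0570), N-control replicate 2 (0.0527), or without OB-TUDCA replicate 2 (0.0601) or 3 (0.0504). The UDP-glucuronosyltransferase Ugt2b1 was lower by 0.93 in OB-TUDCA and held without each array.

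The female-biased genes showed the opposite picture. Sult1e1, the estrogen sulfotransferase, read 2.69, 2.92 and 3.17 in N-control, 8.42, 10.22 and 8.97 in OB-control and 8.90, 7.42 and 7.08 in OB-TUDCA. It was 29.2-fold higher in OB-TUDCA than in N-control (4.87 ± 0.52, limma adjusted p = 0.00287). Cyp2b9 read 7.46, 7.36 and 6.92 in N-control, 12.004, 11.96 and 11.78 in OB-control and 11.61, 11.39 and 11.32 in OB-TUDCA, an 18.3-fold rise over N-control (limma adjusted p = 1.13e-06). Both obese groups stood far above the lean group for each of these genes, and the OB-TUDCA means were the lower of the 2 obese means. Cyp2b13 read 2.50, 4.01 and 3.51 in N-control, 9.87, 8.53 and 9.60 in OB-control and 6.63, 7.93 and 7.37 in OB-TUDCA. The N-control signals of Sult1e1 and Cyp2b13 lay below the array medians over all probe sets (4.502 to 4.579), so the size of their rises is uncertain.

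Cyp2a22 was a female-biased gene for which the 2 obese groups also differed from each other with all 9 arrays. Its signal was 7.02, 7.31 and 6.77 in N-control, 10.47, 10.69 and 10.56 in OB-control and 9.64, 9.64 and 9.34 in OB-TUDCA, so OB-TUDCA was 5.67-fold above N-control and 2.06-fold below OB-control (limma adjusted p = 7.39e-05 and 0.0295). The call against OB-control held only without OB-TUDCA replicate 1 or N-control replicate 3, and the adjusted p was 0.0545 to 0.125 without each other array. Cyp17a1, a steroid hydroxylase and lyase, was 3.87-fold higher in OB-TUDCA than in N-control (8.46, 8.66 and 8.62 against 10.91, 10.40 and 10.29), and its OB-control arrays at 10.55, 10.96 and 10.64 overlapped those of OB-TUDCA. The flavin monooxygenase Fmo2 read 7.44, 7.40 and 7.64 in N-control, 8.00, 8.73 and 8.29 in OB-control and 9.48, 9.28 and 9.02 in OB-TUDCA. It was higher in OB-TUDCA than in N-control (1.77, limma adjusted p = 0.00245), and neither OB-control against N-control (0.078) nor OB-TUDCA against OB-control (0.0759) passed the test.

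**Figure D2:**
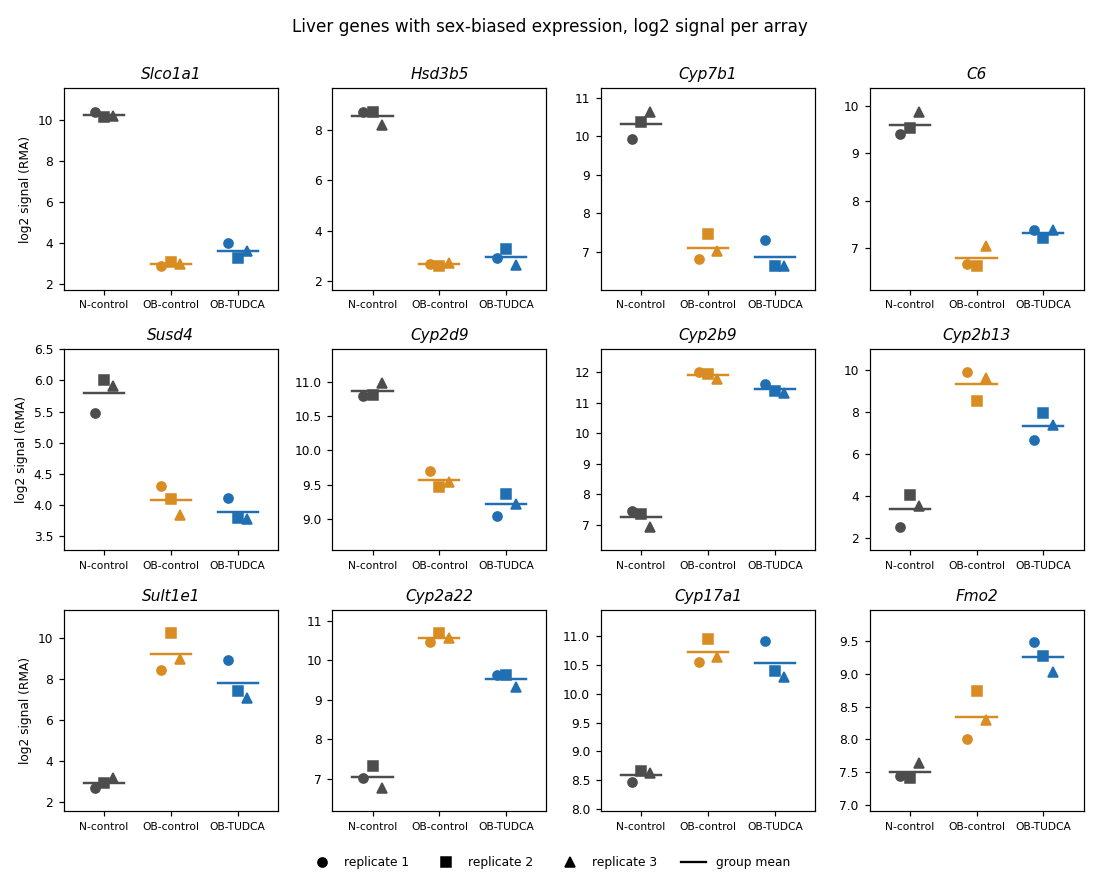
Log2 signal (y axis) of 6 male-biased and 6 female-biased liver genes on the 3 arrays of each group (x axis), with replicate numbers by marker shape and group means as lines. For Slco1a1 the N-control arrays lie above 10 and all obese arrays below 4, and for Cyp2b9 the N-control arrays lie below all obese arrays.

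Of 18 genes of the growth hormone receptor, Stat5 and Igf axis, 2 were lower and none was higher (median -0.02), and 6 were lower and 2 higher before adjustment (p under 0.05). Igfbp2, a binding protein of insulin-like growth factors that leptin is known to raise in liver, was 9.74-fold lower in OB-TUDCA (9.53, 9.48 and 9.67 in N-control against 6.57, 5.38 and 6.88; limma adjusted p = 0.00231), and the OB-control arrays at 6.46, 6.82 and 6.15 overlapped OB-TUDCA. The growth hormone receptor Ghr was lower by 0.52 (adjusted p = 0.0411), and that call ended without any of OB-TUDCA replicates 2 and 3, OB-control replicate 1 and N-control replicates 1, 2 and 3 (adjusted p from 0.0704 to 0.144). Without OB-control replicate 3, 1 gene of the list was higher. The STAT5 target Socs2 differed by -0.12 and Cish by -0.16, and neither passed the test (limma adjusted p = 0.840 and 0.862).

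Some genes of lipid uptake and storage were higher in TUDCA-treated ob/ob liver than in lean liver. The list of fatty acid transport and activation as a whole was not, with 1 higher and 2 lower genes of 17 (median -0.05). Of 23 genes of PPARγ, the nuclear receptor that drives fat storage, and of lipid droplets, 6 were higher and none was lower in OB-TUDCA, and the list median was 0.98. The count was 3 without N-control replicate 1, N-control replicate 2 or OB-TUDCA replicate 2. Pparg itself read 6.91, 7.23 and 7.27 in N-control, 8.06, 7.84 and 8.10 in OB-control and 7.99, 8.02 and 7.84 in OB-TUDCA (0.81 ± 0.12 above N-control, limma adjusted p = 0.00841). Its 2 obese groups overlapped, with a difference of -0.05 between them.

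The fatty acid transporter Cd36 read 8.85, 9.15 and 9.81 in N-control, 10.92, 10.82 and 11.17 in OB-control and 10.87, 11.10 and 11.06 in OB-TUDCA. That is a 3.34-fold rise over N-control (limma adjusted p = 0.00459) with a difference of 0.04 between the obese groups. Vldlr, the receptor of very low density lipoprotein (VLDL), was 2.73-fold higher in OB-TUDCA and also higher in OB-control. G0s2, an inhibitor of the lipase ATGL, was higher by 1.86 (limma adjusted p = 0.0248), a call that ended without N-control replicate 1 (0.106), N-control replicate 2 (0.0862), or without OB-TUDCA replicate 1 (0.0598) or 2 (0.0967). The lipid droplet protein Cidec had a difference of 3.40 with a large spread and did not pass the test (adjusted p = 0.0719).

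Fatty acid synthesis gave fewer calls than this storage group. Of 22 genes of de novo lipogenesis, 1 was higher in OB-TUDCA than in N-control, 4 were higher and 2 lower before adjustment, and the median was 0.11. The list mean spread widely in N-control, at 9.71, 9.21 and 8.68, around the OB-TUDCA values of 9.47, 9.28 and 9.08. The few calls thus do not show that OB-TUDCA matched lean liver. Without N-control replicate 3 or OB-control replicate 2, 1 gene of the list was lower. The gene that passed was Lpin1, whose protein is both a phosphatidic acid phosphatase and a nuclear coregulator. Srebf1, the transcription factor of lipogenesis, read 8.68, 8.58 and 7.56 in N-control, 9.13, 9.32 and 8.35 in OB-control and 8.04, 8.23 and 7.44 in OB-TUDCA. The N-control and OB-TUDCA arrays overlapped (-0.37 ± 0.35, limma adjusted p = 0.634), and the OB-control arrays overlapped N-control alone. The desaturase Scd2 read 5.48, 5.91 and 5.53 in N-control, 8.54, 6.39 and 7.61 in OB-control and 5.55, 5.97 and 6.47 in OB-TUDCA, and it did not pass the test against either group (limma adjusted p = 0.738 against N-control and 0.207 against OB-control).

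Genes of fatty acid oxidation under PPARα leaned upward. Of 31 such genes, 30 had a higher mean in OB-TUDCA than in N-control (median 0.36, against 0.34 for OB-control), 3 were called higher and 1 lower. The list mean spread widely in N-control, from 8.996 to 9.699, and overlapped OB-TUDCA at 9.661 to 9.896 and OB-control at 9.437 to 9.928. Genes of a list may vary together on an array, so the count of 30 is a description and was not tested. The called counts varied with single arrays, with 1 higher gene without N-control replicate 1 or 2, 7 without N-control replicate 3 and 0 without OB-TUDCA replicate 2, and 0 lower genes without N-control replicate 2. Among apolipoproteins, 1 of 19 genes was higher and 2 were lower, and no apolipoprotein was higher without N-control replicate 1 or OB-TUDCA replicate 2, while 2 were without OB-control replicate 2. Apoa4, an apolipoprotein of triglyceride-rich particles, read 10.05, 10.21 and 10.10 in N-control, 12.52, 11.24 and 12.69 in OB-control and 11.90, 12.57 and 12.74 in OB-TUDCA (2.28, limma adjusted p = 0.0112; 0.0521 without N-control replicate 1 and 0.0579 without OB-TUDCA replicate 2). Apom, a carrier of sphingosine 1-phosphate, was lower by 0.94 in OB-TUDCA and by 1.44 in OB-control, and the call for OB-TUDCA ended without OB-TUDCA replicate 2 (0.0553), which left 1 lower gene on that list.

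Cholesterol synthesis gave no gene past the threshold. Of its 19 genes, none was called by limma in OB-TUDCA against N-control. However, 8 were lower at an unadjusted p under 0.05, and 16 had a lower mean (median -0.63, against -0.38 for OB-control). The largest of these differences, for the isoprenoid enzyme Idi1, was -1.39 with an adjusted p of 0.0934. Without N-control replicate 3, 5 genes of the list were called lower. The list means overlapped, at 9.51, 9.03 and 8.41 in N-control, 8.88, 8.19 and 8.62 in OB-control and 8.25, 8.44 and 8.63 in OB-TUDCA.

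Some genes of bile acid synthesis and transport were lower in TUDCA-treated ob/ob liver than in lean liver. Bile acids are made from cholesterol in hepatocytes, through a classical pathway that starts with CYP7A1 and an acidic pathway that uses CYP7B1, and they leave the cell into bile through the export pump BSEP (Abcb11). Of 18 genes of synthesis and conjugation, 6 were lower and 1 was higher (median -0.40). The higher gene, Cyp46a1, lost its call when any 1 array was left out, while another gene of the list was higher without OB-control replicate 2 or 3, and 4 were lower without OB-TUDCA replicate 2 or 3, any N-control array or OB-control replicate 1. Of 25 genes of transport with their regulators, 3 were lower and 2 were higher (median -0.10), where the 2 higher genes became 0 or 1 when any array was left out and 2 were lower without OB-TUDCA replicate 2.

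Abcb11 read 11.59, 11.46 and 11.39 in N-control, 11.35, 11.27 and 10.94 in OB-control and 10.12, 9.54 and 10.39 in OB-TUDCA. It was 2.76-fold lower in OB-TUDCA than in N-control (-1.46 ± 0.20, limma adjusted p = 0.00680), and all OB-TUDCA arrays lay below all OB-control arrays, with a difference of -1.17 that did not pass the test (0.0529). Hsd3b7, which acts early in both synthesis pathways, had the same arrangement at 9.62, 9.998 and 10.16 in N-control, 9.61, 9.61 and 9.70 in OB-control and 8.83, 9.07 and 8.78 in OB-TUDCA. The difference from N-control passed (-1.03, limma adjusted p = 0.00660) and that from OB-control did not (-0.75, 0.0637).

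Cyp7a1, the rate-limiting enzyme of the classical pathway, read 10.17, 11.03 and 10.03 in N-control, 9.09, 8.86 and 10.54 in OB-control and 8.54, 7.71 and 6.44 in OB-TUDCA. It was 7.20-fold lower than in N-control (-2.85 ± 0.57, limma adjusted p = 0.0297), with no overlap with either group, and the difference from OB-control did not pass (-1.93, 0.198). The call against N-control ended without OB-TUDCA replicate 2 or 3, any N-control array or OB-control replicate 1 (adjusted p from 0.0556 to 0.103). Cyp2c70, which forms muricholic acids in mice, read 11.98, 11.81 and 12.16 in N-control, 10.85, 10.99 and 10.23 in OB-control and 10.81, 10.58 and 10.34 in OB-TUDCA, so it was low in both obese groups. Cyp8b1, the enzyme of cholic acid formation, had a difference of -1.01 and did not pass (adjusted p = 0.0934).

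The bile acid transporters differed in direction. Slco1a1, described above, and Slco1b2 (-0.77), both of which take up organic anions from blood, were lower, the latter without a call when OB-TUDCA replicate 2 was left out (limma adjusted p = 0.0528). The sodium-dependent uptake carrier Slc10a1 differed by -0.23 and did not pass (0.394). Slc10a2, the apical sodium-dependent carrier, read 6.66, 7.15 and 6.91 in N-control, 6.77, 6.61 and 6.42 in OB-control and 7.48, 7.77 and 8.27 in OB-TUDCA, higher than in both other groups (limma adjusted p = 0.0392 and 0.0468), and of the omissions only that of OB-TUDCA replicate 1 kept the call against N-control (0.0537 to 0.152 for the rest). The basolateral export pump Abcc4 was higher by 1.29 in OB-TUDCA (limma adjusted p = 0.0441), with OB-control at 7.32, 7.19 and 7.47 and OB-TUDCA at 7.03, 6.53 and 7.40 against 5.16, 5.65 and 6.30 in N-control, and its call held only without N-control replicate 3 (0.0596 to 0.141 for the rest).

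**Figure D3:**
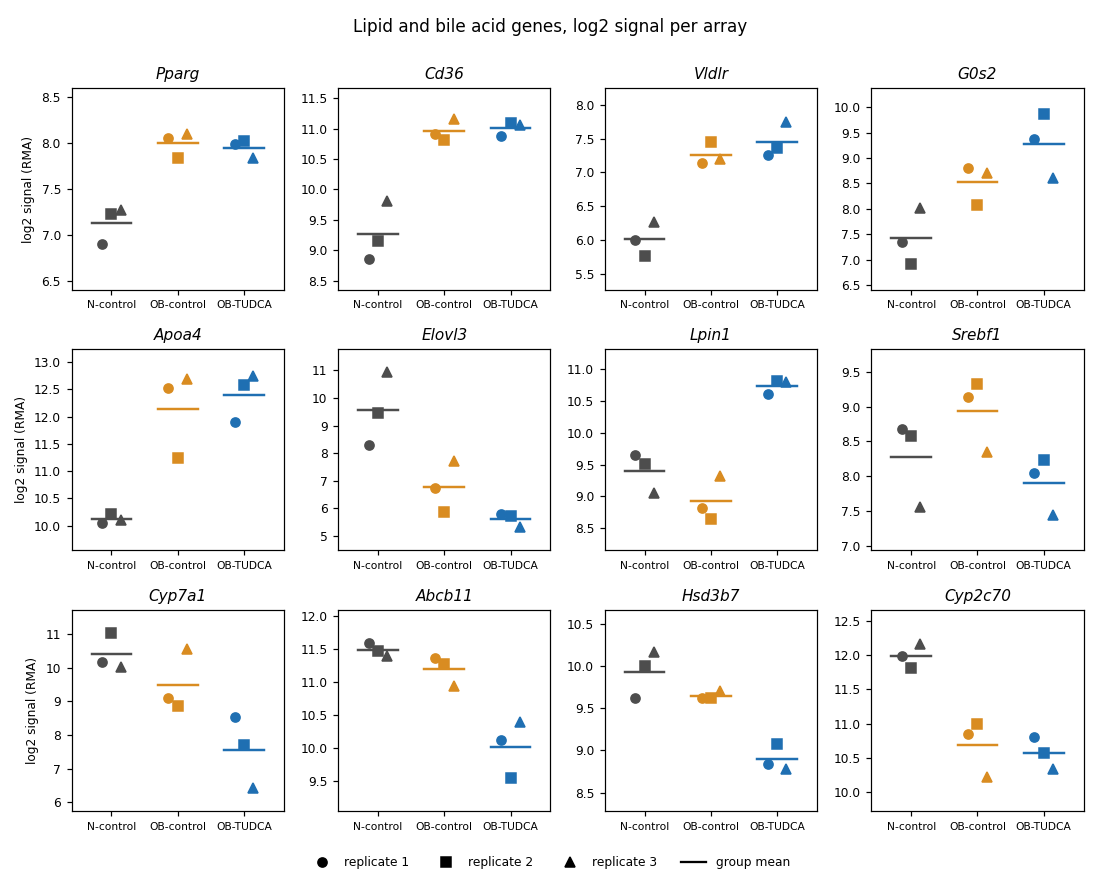
Log2 signal (y axis) of 12 genes of lipid handling and bile acid metabolism on the 3 arrays of each group (x axis), with markers for replicates and lines for group means. Pparg and Cd36 are high in both obese groups, while Abcb11 and Hsd3b7 have their lowest arrays in OB-TUDCA.

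Many enzymes of drug and steroid metabolism were lower in TUDCA-treated ob/ob liver, and some of them are also on the male-biased list. Of 47 cytochrome P450 genes of families 1, 2 and 3, 12 were lower and 4 higher (median -0.23), and 5 were lower without N-control replicate 1, 6 without N-control replicate 2 and 5 without OB-TUDCA replicate 2. The 4 higher genes were Cyp2b9, Cyp2b13, Cyp2a22 and Cyp2b10, all of them on the female-biased list. Cyp1a2, which metabolizes caffeine and aromatic amines, read 11.81, 11.75 and 11.64 in N-control, 10.56, 10.42 and 10.48 in OB-control and 10.45, 10.31 and 10.61 in OB-TUDCA. The 2.42-fold fall in OB-TUDCA (limma adjusted p = 0.000345) was close to that in OB-control, with a difference of -0.03 between the obese groups.

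Of 44 conjugating and other drug-metabolizing enzymes, 11 were lower and 3 higher in OB-TUDCA (median -0.29). The carboxylesterase Ces3b read 11.48, 11.38 and 11.36 in N-control, 9.88, 9.66 and 9.84 in OB-control and 9.56, 8.66 and 9.04 in OB-TUDCA, a 5.01-fold lower signal (limma adjusted p = 0.000647). Aldehyde oxidase Aox3 was lower by 1.52, Ces2a by 1.24, Ugt2b35 by 1.09 and Ugt2b5 by 1.02, and none of these passed the test in OB-control. Sult2a8, a sulfotransferase of male liver, was 5.87-fold lower in OB-TUDCA and read 11.38, 11.48 and 11.56 in N-control, 9.19, 8.73 and 9.33 in OB-control and 9.27, 8.51 and 8.98 in OB-TUDCA. Families with close paralogs such as Ces, Ugt2b, Hsd3b, Cyp2c and Mup may share probe signal.

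Of 27 steroid dehydrogenases and reductases, 10 were lower and 1 was higher, although the median was -0.04. The lower count was 6 without N-control replicate 1 or 2, and the higher gene kept its call in 1 of the 9 omissions. Besides Hsd3b5, the list was led by Hsd3b3 (-2.47) and by Hsd3b2 (-2.25, whose call ended without N-control replicate 2, limma adjusted p = 0.0502). Akr1c6, which acts as a hydroxysteroid dehydrogenase, was 2.50-fold lower (11.19, 11.40 and 11.34 in N-control against 10.38, 9.96 and 9.62), with OB-control between at 10.40, 10.68 and 10.29.

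Antioxidant genes rose in part. Of 27 Nrf2 targets and antioxidant enzymes, 7 were higher and none was lower (median 0.20), but 3 were higher without N-control replicate 1, 4 without N-control replicate 3, 2 without OB-TUDCA replicate 2 and 3 without OB-TUDCA replicate 3. Nqo1, a quinone reductase, read 6.04, 6.46 and 6.26 in N-control, 7.77, 7.69 and 7.69 in OB-control and 7.26, 7.31 and 7.54 in OB-TUDCA. Nnt, the mitochondrial transhydrogenase that supplies NADPH, read 8.06, 8.19 and 8.34 in N-control, 9.83, 9.80 and 10.01 in OB-control and 9.88, 9.77 and 10.03 in OB-TUDCA, 3.24-fold above N-control (limma adjusted p = 0.000109). The substrain C57BL/6J is known to carry a deletion within Nnt. For this gene, a difference of strain background between the lean and the obese mice and an effect of obesity cannot be told apart. The study's methods call the lean mice control littermates of the ob/ob mice. Whether strain background differed between the groups, which would bear on other genes as well, was not tested. None of 31 ER chaperone and unfolded protein response genes was higher and 1 was lower (median -0.01), with 4 higher and 8 lower before adjustment. No ER gene was lower without any one N-control array or OB-TUDCA replicate 2, 2 were without OB-control replicate 1 or 3, 3 were without OB-control replicate 2, and 1 was higher without OB-control replicate 2 or 3 or OB-TUDCA replicate 1.

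Outside the lists described so far, other genes with large rises in both obese groups were Ly6d, Gprc5b and Slc22a27. Gprc5b, an orphan G protein-coupled receptor, read 3.85, 3.77 and 4.04 in N-control, 5.67, 5.28 and 6.21 in OB-control and 6.76, 6.64 and 6.28 in OB-TUDCA, a 6.38-fold rise (limma adjusted p = 0.000647). Its N-control signals lay below the array medians over all probe sets, so the size of this rise is uncertain. Slc22a27, an organic anion transporter, was 5.52-fold higher (6.62, 6.25 and 6.30 against 8.49, 9.26 and 8.82). Mthfd1l, a mitochondrial enzyme of one-carbon metabolism, was higher by 1.76. Ly6d, a surface protein, was higher by 3.40 (adjusted p = 0.0169), a call that ended without N-control replicate 1 (0.0780), N-control replicate 3 (0.0545), or without OB-TUDCA replicate 2 (0.0748) or 3 (0.0591).

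The 39 genes of the TUDCA-alone class were chosen by 3 tests at once, so their values are a description of that choice. As given above, the class was empty when OB-TUDCA replicate 2 or 3, N-control replicate 2 or OB-control replicate 1 was left out. It was also empty in a fit with the exocrine pancreas mean as a covariate, which is high on N-control replicate 2 alone and so is not a separate check. The genes described next had no overlap between OB-TUDCA and either other group.

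Hsd3b3, a hydroxysteroid dehydrogenase, fell furthest against both groups, with 9.99, 9.999 and 9.63 in N-control, 9.62, 9.64 and 9.20 in OB-control and 8.12, 7.01 and 7.07 in OB-TUDCA. That is 5.54-fold below N-control and 4.25-fold below OB-control (limma adjusted p = 0.00318 and 0.0262). Car5a, the mitochondrial carbonic anhydrase that provides bicarbonate for urea and glucose synthesis, read 8.71, 8.66 and 8.68 in N-control, 8.98, 8.75 and 8.60 in OB-control and 7.64, 6.99 and 7.30 in OB-TUDCA. The ubiquitin ligase Rnf125 read 10.51, 10.26 and 10.84 in N-control, 10.47, 10.55 and 10.92 in OB-control and 8.92, 9.31 and 9.02 in OB-TUDCA. For Car5a and Rnf125 the lean and the untreated obese arrays overlapped, and the OB-TUDCA signal was 2.58-fold and 2.74-fold below N-control.

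Bco2, which cleaves carotenoids in mitochondria, was 2.75-fold below N-control and 2.17-fold below OB-control (7.93, 7.88 and 7.56, then 7.49, 7.70 and 7.15, then 6.57, 6.16 and 6.26). The carboxylesterase Ces1g read 10.85, 10.99 and 10.98 in N-control, 11.15, 10.82 and 10.85 in OB-control and 10.15, 10.17 and 10.12 in OB-TUDCA (limma adjusted p = 0.00459 and 0.0249). Nr1d1, the clock repressor REV-ERBα, read 9.44, 9.31 and 9.07 in N-control, 9.34, 9.73 and 9.26 in OB-control and 8.27, 8.69 and 8.25 in OB-TUDCA. Its call against N-control (limma adjusted p = 0.0234) ended without N-control replicate 1 (0.107), N-control replicate 2 (0.0811), or without OB-TUDCA replicate 1 (0.0593) or 3 (0.0761). Nr1d1 was, with Cry1 on the higher side, one of 2 genes of 21 in the circadian clock list that passed the test. The call of Cry1 ended without OB-TUDCA replicate 2 (0.0638) or 3 (0.0546) or N-control replicate 2 (0.0510), and no gene of the list passed without N-control replicate 2 or OB-TUDCA replicate 3. The list gave 3 lower genes without N-control replicate 3 and 2 higher genes without OB-control replicate 3.

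Lpin1 was the higher gene with the largest difference from OB-control, at 9.65, 9.51 and 9.05 in N-control, 8.81, 8.65 and 9.33 in OB-control and 10.61, 10.82 and 10.79 in OB-TUDCA. It was 2.52-fold above N-control and 3.51-fold above OB-control (limma adjusted p = 0.00876 and 0.0192). Cd93, a C-type lectin of endothelial cells, read 5.47, 5.10 and 5.79 in N-control, 5.88, 5.74 and 6.11 in OB-control and 6.85, 7.63 and 7.76 in OB-TUDCA. Its difference from OB-control lay at the threshold (limma adjusted p = 0.05 after rounding). That call held only without OB-TUDCA replicate 1 (0.0171, against 0.0664 to 0.193 for the other omissions). Lean and untreated obese arrays overlapped for both genes.

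Rhoc, a small GTPase of the actin cytoskeleton, read 5.88, 5.71 and 5.80 in N-control, 5.55, 5.38 and 5.85 in OB-control and 6.74, 6.87 and 7.41 in OB-TUDCA. Timp3, an inhibitor of metalloproteinases, was 2.32-fold above N-control (6.67, 6.53 and 6.58 against 7.63, 7.91 and 7.89), with OB-control between at 6.94, 6.89 and 7.20. The glycolytic enzyme Aldoa was higher by 1.02, a call that ended without OB-TUDCA replicate 2 (limma adjusted p = 0.0514). The interleukin 6 receptor Il6ra was higher by 0.82 and lost its call without N-control replicate 1 (0.0548) or OB-TUDCA replicate 3 (0.0503).

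**Figure D4:**
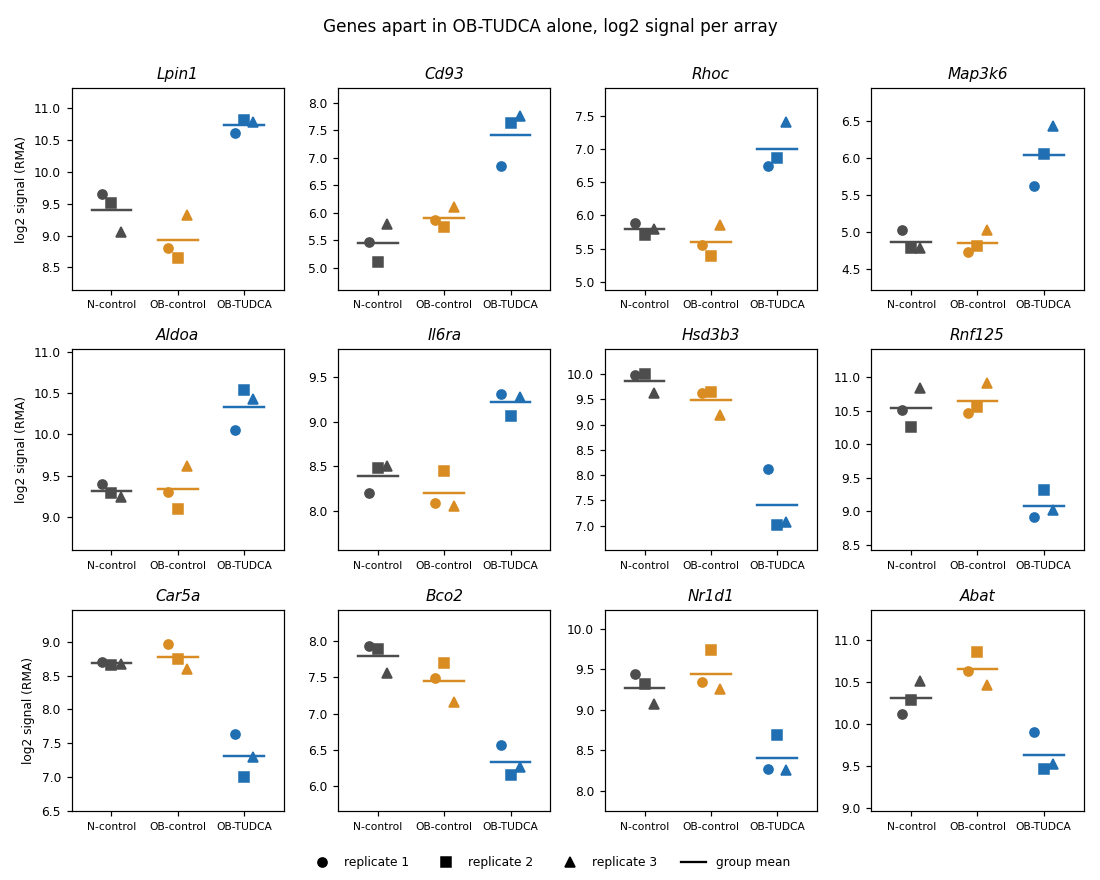
Log2 signal (y axis) of 12 genes that differed between OB-TUDCA and both other groups, on the 3 arrays of each group (x axis), with markers for replicates and lines for group means. In each panel all 3 OB-TUDCA arrays lie on 1 side of the other 6 arrays.

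Genes of amino acid breakdown averaged lower in OB-TUDCA. Of 43 genes, 37 averaged lower in OB-TUDCA than in N-control, 7 were called lower and 1 higher, and the list median was -0.38 against 0.08 for OB-control against N-control. The lower count was 2 without N-control replicate 1, N-control replicate 2 or OB-TUDCA replicate 2, 3 without OB-TUDCA replicate 3, 4 without N-control replicate 3 and 13 without OB-TUDCA replicate 1. The higher gene was lost without OB-TUDCA replicate 2 or 3 or N-control replicate 1 or 2. Hibch, an enzyme of valine breakdown, read 9.19, 9.16 and 9.11 in N-control, 8.99, 8.95 and 8.97 in OB-control and 8.65, 8.34 and 8.26 in OB-TUDCA. The last enzyme of tyrosine breakdown, Fah, was lower by 0.53 (11.30, 11.24 and 11.31 against 10.87, 10.71 and 10.70), with OB-control between at 11.14, 11.19 and 11.12.

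Genes induced by glucocorticoids, the adrenal steroids that act on metabolism and inflammation, included 8 higher and no lower genes of 25 (median 0.41, against -0.16 for OB-control). The count was 5 without N-control replicate 1 or OB-TUDCA replicate 3. Fkbp5, a cochaperone of the glucocorticoid receptor and a common index of its activity, read 6.57, 6.60 and 7.97 in N-control, 7.35, 8.00 and 8.34 in OB-control and 9.32, 9.55 and 10.08 in OB-TUDCA, a 6.09-fold rise (limma adjusted p = 0.0101). Sult1e1, Lcn2, Cyp2b10 and Lpin1 are also on this list, and each of them responds to other signals too.

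Acute phase proteins, which the liver secretes in inflammation, included 6 higher and 1 lower genes of 28 (median 0.42). The higher count was 1 without N-control replicate 1 or OB-TUDCA replicate 3, 2 without N-control replicate 2 or OB-TUDCA replicate 2, and 10 without OB-TUDCA replicate 1, and the lower gene lost its call without N-control replicate 2. Lcn2, an iron-siderophore-binding protein, read 6.07, 7.23 and 6.98 in N-control, 8.57, 9.70 and 9.01 in OB-control and 9.76, 11.16 and 11.25 in OB-TUDCA. It was 15.6-fold higher in OB-TUDCA than in N-control (limma adjusted p = 0.00342), and OB-control stood between the groups without passing either test (0.0528 and 0.167). Hepcidin (Hamp) read 10.66, 11.93 and 11.89 in N-control, 11.25, 12.40 and 10.15 in OB-control and 9.72, 10.61 and 8.48 in OB-TUDCA, and its difference of -1.89 did not pass (0.164).

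Interferon response genes gave 5 lower and no higher genes of 27 (median -0.11), and 1 lower without N-control replicate 1 or OB-TUDCA replicate 2 and 2 without N-control replicate 2. Iigp1, an interferon-induced GTPase, read 10.26, 10.02 and 10.06 in N-control, 8.90, 8.90 and 8.88 in OB-control and 8.53, 8.49 and 8.62 in OB-TUDCA. It was 2.96-fold lower in OB-TUDCA (limma adjusted p = 4.33e-05) and lower in OB-control as well. All obese arrays lay below all lean arrays, and the OB-TUDCA arrays were the lowest.

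Markers of the non-parenchymal cells of the liver were mixed. Of 22 markers of sinusoidal endothelial cells, 3 were higher (Lyve1, Cd93 and Thbd) and 5 lower (Kdr, Bmp2, Dnase1l3, Fcgr2b and Oit3), and the list means of the groups overlapped, at 6.84 to 7.03 in N-control, 6.66 to 6.94 in OB-control and 6.88 to 6.96 in OB-TUDCA. The higher count was 1 without OB-TUDCA replicate 2 and 2 without N-control replicate 1, N-control replicate 2 or OB-TUDCA replicate 3, and the lower count was 1 to 3 with any array but OB-TUDCA replicate 1 left out. Thbd lost its call without N-control replicate 1 (0.0832) or 2 (0.0612) or OB-TUDCA replicate 2 (0.0782) or 3 (0.0630), and Kdr without any N-control array or OB-TUDCA replicate 2 or 3 (limma adjusted p from 0.0570 to 0.0999). Dnase1l3 lost it without N-control replicate 1 (0.0503), while Bmp2 and Fcgr2b held only without OB-TUDCA replicate 1. Lyve1, a hyaluronan receptor, read 7.25, 6.88 and 6.79 in N-control, 7.31, 7.38 and 8.71 in OB-control and 8.83, 9.81 and 9.60 in OB-TUDCA, and its call (limma adjusted p = 0.0110) ended without OB-TUDCA replicate 2 (0.0578). Oit3 read 7.73, 7.88 and 7.97 in N-control, 7.65, 7.58 and 7.58 in OB-control and 7.35, 7.08 and 7.21 in OB-TUDCA and held without each array. The endothelial adhesion genes Vcam1 and Mcam, which were outside the list, were higher by 1.36 and 1.24 and were chosen after their values were seen. Other genes expressed in endothelial cells and outside the list went the other way. With all 9 arrays, Nrp1, Adgrl4 and Ptprb were 1.85-fold, 1.48-fold and 1.46-fold lower in OB-TUDCA than in N-control. Whether those 3 calls held without each array is not given here.

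Of 22 Kupffer cell and macrophage markers, 1 was lower and none higher, 5 were higher and 2 lower before adjustment (p under 0.05), and 3 were called higher without OB-TUDCA replicate 1. The list mean was 6.29 to 6.48 in N-control, 6.24 to 6.49 in OB-control, and 6.33, 6.80 and 6.93 in OB-TUDCA. The lower gene was the mannose receptor Mrc1 (8.10, 8.05 and 8.203 against 7.59, 7.41 and 7.31), which sinusoidal endothelial cells express as well. No marker of T, NK and B cells (16 genes), cholangiocytes (7) or neutrophils (11) was called by limma, and at an unadjusted p under 0.05 there were 4 higher neutrophil markers and no other. The neutrophil list mean was 3.45 to 3.57 in N-control, 3.48 to 3.53 in OB-control, and 3.50, 3.92 and 3.78 in OB-TUDCA, and 1 of its genes was called higher without OB-TUDCA replicate 1. The part of these cells in the acute phase and endothelial results was not tested.

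Among genes in neither class, Nrg4, a growth factor of the epidermal growth factor family, read 6.10, 5.97 and 4.83 in N-control, 6.72, 6.34 and 7.07 in OB-control and 8.15, 7.62 and 7.91 in OB-TUDCA. It was 4.80-fold above N-control (limma adjusted p = 0.00810). Tfrc, the transferrin receptor, was higher by 1.85 (adjusted p = 0.0393), a call that held only without OB-control replicate 2 or OB-TUDCA replicate 1 and gave 0.0590 to 0.152 without each other array.

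Other gene groups gave no or few calls. None of 49 cytosolic ribosomal protein genes (median 0.00) and none of 56 respiratory chain subunits (median -0.01) passed limma's test, with 3 lower, and with 3 higher and 4 lower, before adjustment (p under 0.05). Without OB-control replicate 3, 1 ribosomal gene was lower, 1 respiratory chain gene was lower without OB-TUDCA replicate 1 and 1 was higher without OB-TUDCA replicate 3. None of 24 immediate early genes passed either, with 7 higher and 1 lower before adjustment, and 1 was lower without N-control replicate 3 or OB-control replicate 2 and 1 higher without OB-TUDCA replicate 1. Of 21 glutathione S-transferases, 1 was lower, but none without N-control replicate 1 or OB-TUDCA replicate 2, 3 without OB-TUDCA replicate 1 and 2 without OB-TUDCA replicate 3. Of 34 cell cycle genes 2 were higher, with 0 without OB-TUDCA replicate 2 and 1 without any one N-control array, OB-control replicate 1 or OB-TUDCA replicate 3.

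The remaining lists each had between 0 and 4 calls in a direction, and in most of them the count moved when single arrays were left out. Of 32 genes of glycolysis, gluconeogenesis and glycogen, 4 were higher and none lower. There were 0 higher genes without OB-TUDCA replicate 2, 1 without N-control replicate 1 or 2 or OB-control replicate 1 or 3, and 2 without OB-control replicate 2 or OB-TUDCA replicate 3, and without N-control replicate 3 there was 1 lower gene. Complement gave 1 higher and 3 lower genes of 30, led by C6. There were 0 higher and 1 lower complement genes without N-control replicate 1 or OB-TUDCA replicate 2, 4 higher without OB-TUDCA replicate 1 and 0 higher without OB-TUDCA replicate 3. Coagulation and fibrinolysis gave 2 higher and 3 lower genes of 27, none at all without N-control replicate 2 or OB-TUDCA replicate 2, 1 lower without N-control replicate 1 or OB-TUDCA replicate 3, and 1 higher and 2 lower without N-control replicate 3. Iron handling gave 3 higher and 2 lower genes of 23, none without N-control replicate 2 or OB-TUDCA replicate 2 or 3, 1 higher without N-control replicate 1, and 1 in each direction without N-control replicate 3.

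Fatty acid transport and activation gave 1 higher gene (Cd36) and 2 lower genes of 17, and 1 lower without OB-TUDCA replicate 2 or 3, N-control replicate 2 or 3, or OB-control replicate 1 or 3. Glycine, methionine and one-carbon metabolism gave 1 higher gene (Mthfd1l) and 1 lower of 26, with no lower gene without N-control replicate 2 or OB-TUDCA replicate 2, 3 lower without OB-TUDCA replicate 1 and 2 higher without N-control replicate 3. Triglyceride synthesis gave 2 higher genes of 14, and 1 without each array other than N-control replicate 3 and OB-control replicate 2. The Atf4 and amino acid response gave 2 higher of 23, none without N-control replicate 1 or OB-TUDCA replicate 2 and 1 without N-control replicate 2 or OB-TUDCA replicate 3. Hepatocyte transcription factors and nuclear receptors gave 2 higher of 34, but 1 without any OB-TUDCA array, N-control replicate 1 or 2 or OB-control replicate 3, and 3 higher and 1 lower without N-control replicate 3. Insulin and leptin signalling gave 1 higher of 22, none without N-control replicate 1 or 2 or OB-TUDCA replicate 3, and 2 without N-control replicate 3 or OB-control replicate 2.

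Fatty acid desaturation and elongation gave 1 lower gene of 16 (Elovl3), which was lost without OB-TUDCA replicate 2 or 3. Taurine synthesis and uptake (1 lower of 11) and the urea cycle (1 lower of 8) kept a call only without OB-TUDCA replicate 1. Among the other marker lists, hepatocyte markers gave 1 higher gene of 15, and none without each array other than N-control replicate 3 and OB-control replicate 2. Stellate cell and fibrosis genes gave 1 in each direction of 24, and none without any one N-control array, OB-control replicate 1 or OB-TUDCA replicate 2 or 3, no lower gene without OB-control replicate 3 and 2 higher without OB-TUDCA replicate 1. Adipocyte genes gave 1 in each direction of 8, and none without any one N-control array, OB-control replicate 1 or OB-TUDCA replicate 2 or 3, 2 higher without OB-control replicate 2 or 3 and no lower gene without the latter. Erythrocyte genes gave 1 in each direction of 3, neither without N-control replicate 2 or OB-TUDCA replicate 2 and no higher gene without N-control replicate 1 or OB-TUDCA replicate 3. Pancreatic islet genes gave none of 14 in limma, with 2 higher before adjustment.

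**Figure D5:**
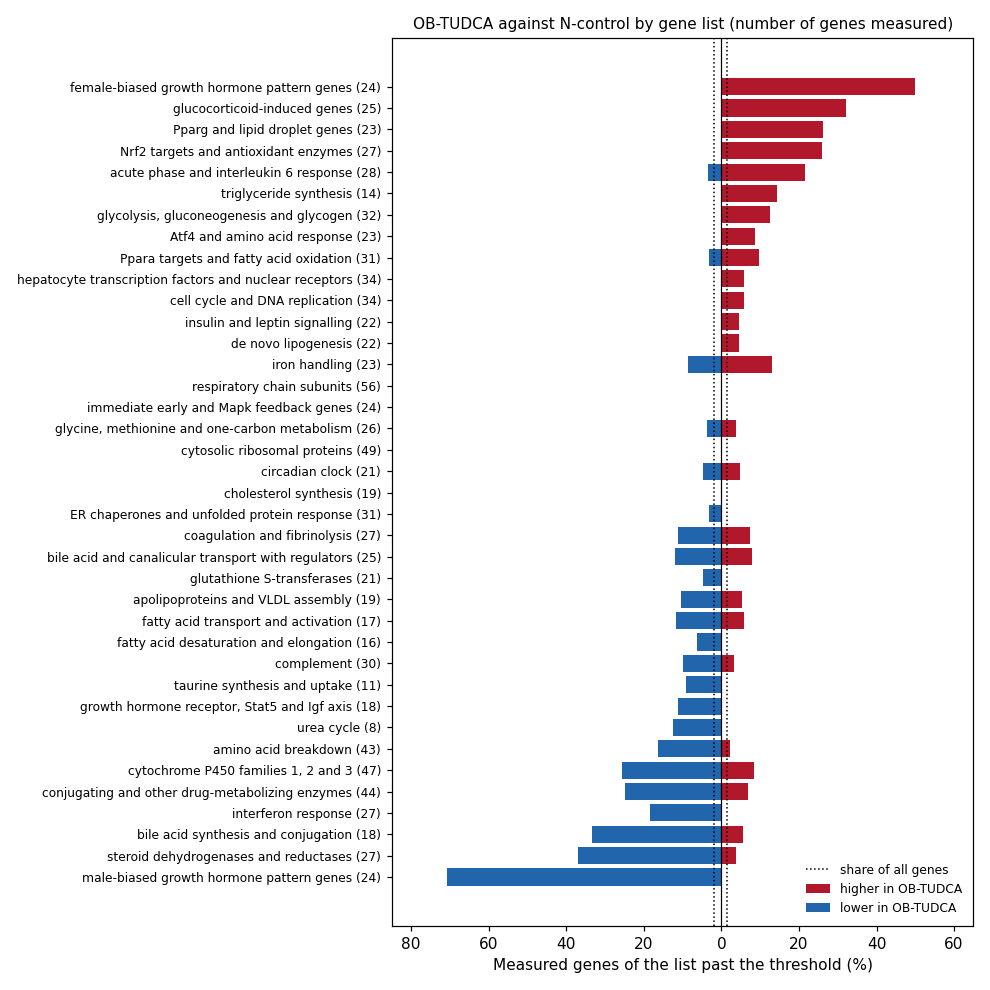
Share of measured genes of each list (rows, number measured in parentheses) that were higher (red, to the right) or lower (blue, to the left) in OB-TUDCA than in N-control at an adjusted p under 0.05 (x axis, %), with the shares over all genes, 1.35% and 1.89%, as dotted lines. The male-biased list has the longest bar to the left (17 of 24 genes) and the female-biased list the longest to the right (12 of 24).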

How the data were processed

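RNA of 9 mouse liver samples was hybridised to 1-colour Affymetrix Mouse Gene 1.0 ST arrays. Per the labels and the study's methods, the authors normalised and summarised the signals by robust multi-array average (RMA) in Affymetrix Expression Console, and the deposited values are log2 signals. No detection calls were used, the number of arrays limits the precision, and the probes' genome build is not given in the sources used here. Of 35556 probe sets, 21789 had 1 gene symbol in GEO's platform annotation, 1621 several and 12146 none; those with 1 were averaged to 19938 genes, 999 of them from over 1 probe set, and 19856 matched a RefSeq gene by Entrez ID. A group-means model was fitted to all 9 arrays with limma 3.58.1 in R 4.3.3 (lmFit, eBayes, two-sided, Benjamini-Hochberg over all genes, threshold 0.05) after a test on simulated data. The methods name 6 mice a group, and the series holds 3 arrays a group. Whether an array is 1 mouse or a pool is not said. The labels call the arrays biological replicates but give no animal numbers, so p-values measure the spread between these samples. SE is that of the fitted difference.

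Named genes were the 12 largest rises and falls with groups apart, up to 10 each way of each class, up to 4 called genes per list (or the 2 of highest signal), the 6 pancreas genes most raised on N-control replicate 2, and genes the study measured by PCR. Further list members and a few genes marked as such were chosen after their values were seen. Members and the 49 lists were chosen with earlier results of these data known, so list counts are descriptions. Promoter windows came from RefSeq. Alternatives were other filters, normalizations, variance models and array subsets. Figures were drawn with matplotlib 3.10.9.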

Additional observations from a re-analysis of the deposited data

How the results depend on the processing

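No gene called in OB-TUDCA against N-control changed sign under any alternative run. Leaving out or weighting arrays could not change a sign, because the OB-TUDCA and N-control arrays did not overlap in any of these 646 genes. Filters and variance models leave the difference itself as it is, so for these runs the unchanged sign says nothing. With all arrays, 269 genes were higher, 377 lower, 123 in both obese groups and 39 under TUDCA alone. With each array left out in turn these were 68 to 400, 125 to 390, 45 to 141 and 0 to 110. An exocrine pancreas covariate gave 118, 208, 60 and 0, and a fit of the 6 arrays alone 127 higher and 218 lower. A t-test gave 0, 0, 0 and 0 genes after Benjamini-Hochberg adjustment and 1263, 1147, 796 and 598 at an unadjusted p under 0.05. In it, 29 genes of no spread had no p. The study's general statistics name a t-test, but its array genes were selected by significance analysis of microarrays with a fold-change limit. That selection was not run here. The TUDCA-alone class held 83 genes after a filter on low signal and 62 after quantile normalization. Array weights gave 199 genes in both obese groups. A replicate block gave 430 higher, 441 lower, 136 in both and 44 under TUDCA alone; the replicate numbers were not shown to pair the samples, since deviations of same-numbered arrays correlated at -0.0753 to 0.209, although 7 of 9 arrays correlated best with an array of their own number. Subtracting array medians, trend with robust variances, single probe sets, removal of pancreas genes and a fold limit of 1.5 kept the 4 counts within 1.5 times. Limits: 3 arrays a group, no lean TUDCA group, no detection calls, and pancreas RNA on N-control replicate 2. The cause of these shifts was not tested.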
